A study of Mus musculus with 6 samples.

Results

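The integrated stress response genes were examined in 6 RNA sequencing libraries of mouse cells labelled Glu-tag. The set holds 32 genes, picked by symbol, out of 54532 genes in the deposited count table. They comprise the kinases that start the response, the translation factor they act on, the transcription factors it induces, and targets of those factors. Of the 32 genes, 30 had enough counts to be tested among 13472 genes. Vldlr, a lipoprotein receptor gene, and Stc2, the gene of the secreted glycoprotein stanniocalcin 2, had 0 counts in every library. A count of 0 bounds each at 0.0295 CPM (counts per 1000000 counts of a library) with the 6 libraries pooled.

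The study asked which transcripts change when Irs2, an insulin receptor substrate gene, is silenced in the Glu-tag line, murine enteroendocrine cells that the submitters count among SI-NET lines, with small intestine as the stated tissue. A group of 3 libraries carried a control hairpin and a genotype given as WT, and a group of 3 carried a stable hairpin against Irs2 and a genotype given as IRS2 knockdown. No other treatment is named, and the sources used here do not give the hairpin sequence, the number of clones or whether the triplicates were separate cultures beyond calling them biological. The titles number the libraries of each group 1 to 3, while the description of every library says rep1, so p-values reflect only how these libraries vary, which may be technical. Libraries are named shControl 1 to 3 and shIRS2 1 to 3 after these labels.

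When protein folding in the endoplasmic reticulum fails, amino acids run short, haem is lacking or double-stranded RNA appears, one of a family of kinases phosphorylates the alpha subunit of the initiation factor eIF2. Phosphorylated eIF2 blocks its own exchange factor, eIF2B, so that most translation slows while messages with suitable upstream reading frames, Atf4 above all, are translated better. The ATF4 protein, often paired with a C/EBP protein, then switches on genes for amino acid synthesis and uptake, for restraint of growth signalling and, through CHOP, for cell death. A phosphatase made of the PP1 catalytic subunit and one of the Ppp1r15 proteins reverses the first step. RNA levels show the transcriptional output of this pathway and do not measure phosphorylation of eIF2 or the amount of ATF4 protein.

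The libraries held 14991019 to 19790073 counts. Irs2 was at 31.6, 22.7 and 34.3 CPM in shControl 1, 2 and 3 and at 31.4, 28.6 and 38.7 CPM in shIRS2 1, 2 and 3. It was not lower under its own hairpin, with an exact permutation p of 0.6 (two-sided, 0.1 being the smallest that 3 against 3 allows) and an edgeR log2 fold change of 0.17 (SE 0.17). That goes against the label, so shIRS2 below means only the libraries labelled so. Of 12 enteroendocrine markers, 7 had 0 counts in all libraries, among them Gcg, which encodes proglucagon, Chga, Pcsk1 and Neurod1, and Pax6 alone had a mean above 1 CPM. Defining markers of the labelled cell type were therefore undetected. The libraries also stood apart by number: 19.6% of all tested genes passed an edgeR F test for any difference between the replicate numbers at an adjusted p of 0.05, with the hairpin group held constant. The labels do not say what a number stands for beyond a replicate.

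A motif known as the C/EBP-ATF response element, to which ATF4 binds together with C/EBP proteins, marks many genes of this response, so stretches that hold it are shown for the members described below. Promoters were read from RefSeq (GRCm38.p6, the assembly called mm10) as the 250 bases before to 50 bases after each start, and 29 of the 32 members had one. The letters TGATGNAA were searched on both strands, so that a match on the opposite strand reads TTNCATCA. They occurred in 10 of the 29 members' promoters, which is 34.5%, and in 4.51% of the 27025 genes with a promoter in the table. By window, 3.97% of all 32851 promoter windows held the letters. The stretches below run 5′ to 3′ on the strand of the gene, with the match in capitals, and lie outside every exon annotated by GENCODE M21.
Chac1: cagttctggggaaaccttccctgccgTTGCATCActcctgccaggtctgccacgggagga
Atf3: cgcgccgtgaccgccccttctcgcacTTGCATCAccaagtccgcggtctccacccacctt
Fgf21: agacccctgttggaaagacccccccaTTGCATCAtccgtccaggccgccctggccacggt
Pck2: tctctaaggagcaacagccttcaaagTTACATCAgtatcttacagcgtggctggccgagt
Pycr1: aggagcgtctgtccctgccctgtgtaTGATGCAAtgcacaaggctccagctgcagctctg
Jdp2: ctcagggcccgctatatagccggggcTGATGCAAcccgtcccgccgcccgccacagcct
The stretch of Chac1 lies at chr2:119351023-119351082 on the plus strand, that of Atf3 at chr1:191183410-191183469 on the minus strand and that of Fgf21 at chr7:45615596-45615655 on the minus strand. The stretch of Pck2 lies at chr14:55540137-55540196 on the plus strand, that of Pycr1 at chr11:120643818-120643877 on the minus strand and that of Jdp2 at chr12:85599357-85599415 on the plus strand. Chac1, Atf3 and Fgf21 share TTGCATCA, beginning 193, 110 and 139 bases before the start, and Pycr1 and Jdp2 hold the same letters on the other strand as TGATGCAA, 103 and 33 bases before it. Pck2 has TTACATCA, beginning 103 bases before the start, and Trib3 has the same 8 letters 14 bases after its RefSeq start. Asns, Nupr1 and the undetected Vldlr held the remaining matches, TGATGAAA beginning 23 bases before the start in Asns and TTGCATCA beginning 110 and 200 bases before it in Nupr1 and Vldlr. The cAMP response element TGACGTCA, whose letters read the same on both strands, occurred in the promoter of Ppp1r15a among the 29 members and in 2.03% of all genes. A match describes letters only and shows no binding.

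Between genes, levels can be compared only per length, in the deposited FPKM values (fragments scaled by gene length and library size). Atf4 was highest, at 243 ± 35.2 FPKM (mean ± SD over the 6 libraries), and its lowest library, at 199.8 FPKM, lay above the highest library of every other member. Asns, the asparagine synthetase gene, followed at 120.0 ± 25.1 FPKM, then the growth restraint gene Ddit4 at 105 ± 48.4 FPKM and the translation repressor gene Eif4ebp1 at 94.1 ± 14.6 FPKM. At the low end stood Pycr1 at 1.88 ± 0.411 FPKM and Fgf21 at 0.597 ± 0.454 FPKM. In this order of 30 genes, 27 of the 29 neighbouring pairs overlapped in their ranges over the libraries, and the exceptions were Atf4 above Asns and Pycr1 above Fgf21.

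Most members were low in both libraries numbered 2, whichever hairpin the cells carried. In the test for any difference between the numbers, 22 of the 30 tested members passed, which is 73.3% against 19.6% of all genes. Contrasting number 2 with the mean of numbers 1 and 3, a contrast chosen with earlier results of these data known, 23.5% of all genes passed and 23 members did. Of these members 22 were lower in number 2, where 11.9% of all genes were, and 1 was higher, where 11.6% were. At least 2-fold lower were 9 members and 0.846% of all genes. In 24 members both libraries numbered 2 lay below the other 4 libraries (23.4% of all genes), and in 1 both lay above (16.7%). The median log2 fold change was -0.58 over the members and -0.0040 over all genes. Of the members 25 were negative and 5 positive, and of all genes 6821 were negative and 6651 positive. Without shControl 2, 17 members were lower and 0 higher, and without shIRS2 2 these were 18 and 1, while 808 and 1081 of all genes passed against 3169 with all libraries. The members took 0.296% and 0.288% of the counts in the libraries numbered 2, and 0.375% to 0.424% in the others.

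**Figure D1:**
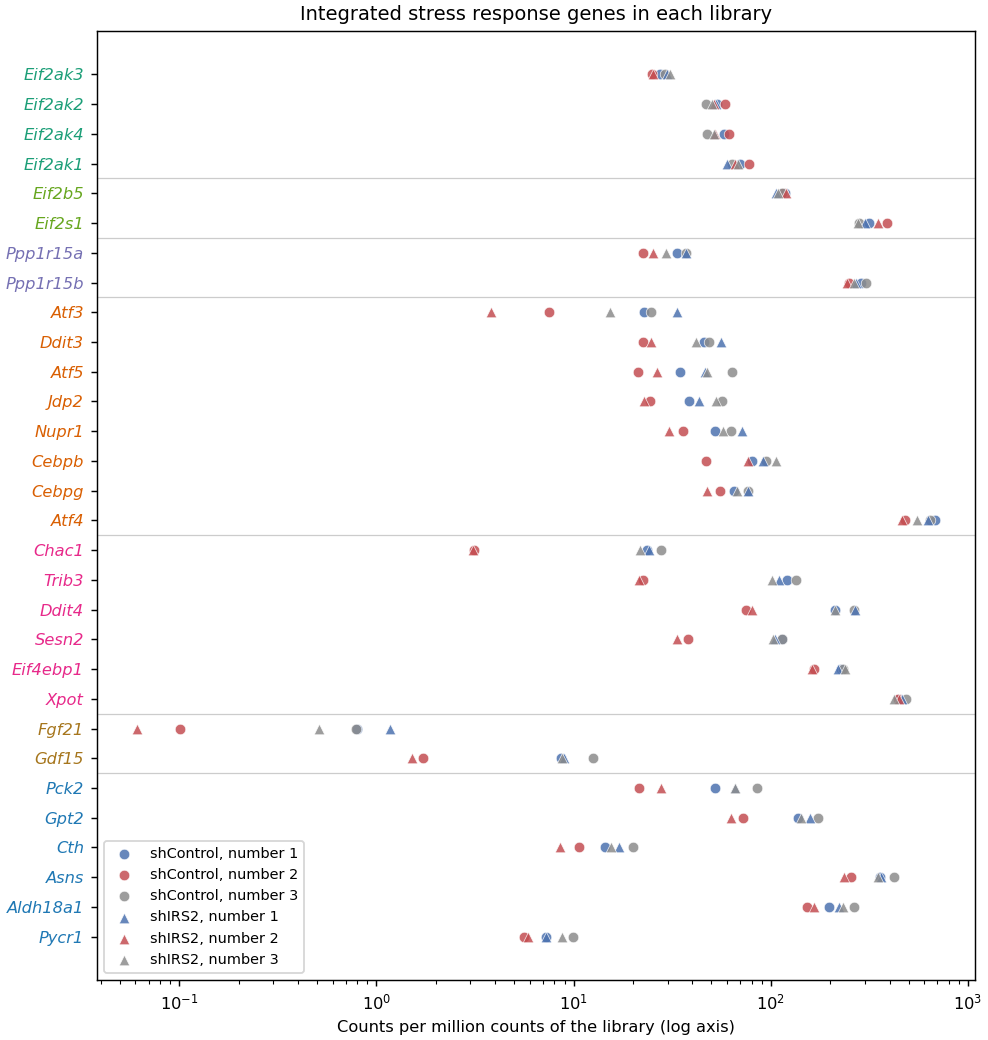
Level of each of the 30 tested genes in each of the 6 libraries, in CPM on a log axis, with circles for shControl, triangles for shIRS2 and colours for the replicate number; gene names are coloured by role. Both red symbols, the libraries numbered 2, lie left of the other 4 in 24 genes, and the gap is widest for Chac1, Trib3, Gdf15 and Fgf21.

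Some technical measures moved with the number and some did not. Mitochondrial transcripts took 1.63% and 1.71% of the counts in the libraries numbered 2 and 1.25% to 1.61% in the others. TMM scaling factors were 0.989 and 0.983 in number 2 and 1.00 to 1.02 elsewhere. Total counts did not follow the number, since shControl 2 was the deepest of the 6 and shIRS2 2 was not. Markers of other cells were summed per library. The 11 fibroblast markers summed to 629 and 850.0 CPM in number 2 and to 654 to 989 CPM in the others, most of it Col3a1, while Thy1 and Postn had 0 counts. Of the 5 tested, 1 was lower in number 2 and 1 was higher. The 8 markers of macrophages and leukocytes summed to 18.3 and 18.4 CPM in number 2 and to 14.5 to 22.5 CPM elsewhere, with Ptprc at 3 counts over all libraries, and the 4 endothelial markers to 0.730 and 2.12 against 0.639 to 1.87 CPM. These sums overlapped between the numbers, while that of the 12 enteroendocrine markers, nearly all Pax6, did not, at 20.0 and 21.7 against 23.6 to 27.4 CPM, though Pax6 did not pass. The part of these measures in the results was not tested. In bulk RNA, fewer cells in a state and less of its RNA per cell cannot be told apart.

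All 8 transcription factor genes of the set were lower in number 2, as were 11.9% of all genes. Atf4, the hub of the response, stood at 684, 481 and 644 CPM in shControl 1, 2 and 3 and at 625, 464 and 552 CPM in shIRS2 1, 2 and 3. Its log2 fold change between number 2 and the others was -0.37 (SE 0.06, 95% limits -0.51 and -0.23, adjusted p = 0.000954), among the smaller changes of the set, and it did not pass without shControl 2, at -0.31 with an adjusted p of 0.129. Ddit3, which encodes the pro-death factor CHOP, held 45.7, 22.4 and 48.4 CPM in the control libraries, in the order of their numbers, and 56.0, 24.7 and 41.6 CPM in shIRS2. Both libraries numbered 2 held about the same low level, and the log2 fold change was -0.997 (SE 0.11, 95% limits -1.23 and -0.77, adjusted p = 2.85e-05). That is just short of 2-fold lower. The counts of Ddit3 may share reads with Mars, which lies across it on the other strand and whose log2 fold change was -0.21.

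Atf3, an early ATF-family gene, was at 22.9, 7.48 and 24.7 CPM under the control hairpin and at 33.6, 3.83 and 15.3 CPM in shIRS2. Its hairpin groups differed within each number by more than those of any other member, yet number 2 stayed lowest in both. Its log2 fold change was -2.04 (SE 0.43, 95% limits -3.30 and -0.79, adjusted p = 0.0499), just inside the threshold, and it did not pass the test for any difference between numbers, at an adjusted p of 0.0939. Leaving out either number 2 library, or the filter on low counts, ended the call. Jdp2, a repressor of the same family whose promoter stretch is shown above, had 38.6, 24.4 and 56.5 CPM in shControl 1 to 3 against 43.2, 22.8 and 52.4 CPM in shIRS2 1 to 3. Its log2 fold change was -0.97 (SE 0.09, 95% limits -1.17 and -0.77, adjusted p = 1.33e-05), and both libraries numbered 2 lay below all others.

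Cebpb and Cebpg encode C/EBP partners of ATF4. Cebpb held 80.2, 46.8 and 94.6 CPM in the control libraries, in the order of their numbers, and 91.5, 76.6 and 107 CPM in shIRS2. Its log2 difference of number 2 from the mean of numbers 1 and 3 was -0.86 under the control hairpin and -0.34 in the shIRS2 libraries. The unadjusted p between the groups was 0.0186 and its adjusted p 1.00, and the overall log2 fold change was -0.59 (SE 0.10, 95% limits -0.81 and -0.37, adjusted p = 0.000992). The call ended without shControl 2, at -0.34 with an adjusted p of 0.109, and with no term for the hairpin group, at -0.56 with 0.127. Cebpg had a log2 fold change of -0.44 (SE 0.09, adjusted p = 0.00351), and its call ended without shIRS2 2, at -0.32 with an adjusted p of 0.159, and in limma on FPKM, at 0.0554 and 0.0522 with pseudocounts of 1 and 0.1. Atf5, an ATF4 relative involved in mitochondrial stress, was lower at -0.97 (SE 0.18, adjusted p = 0.00835), and Nupr1, a small stress-induced nuclear protein gene, at -0.85 (SE 0.13, adjusted p = 0.00190). Reads of Atf5 may be shared with Nup62 on the other strand and those of Cebpb with Tmem189.

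The 6 members grouped as signal regulators are of mixed function, and 5 were lower in number 2, as were 11.9% of all genes. Trib3, a pseudokinase gene that CHOP and ATF4 induce and whose product restrains AKT, stood at 121, 22.4 and 134 CPM in shControl 1, 2 and 3 and at 110.4, 21.5 and 102 CPM in shIRS2 1, 2 and 3. Both libraries numbered 2 were at about the same level, far below the other 4, and Trib3 was 5.19-fold lower there, with a log2 fold change of -2.38 (SE 0.09, 95% limits -2.58 and -2.17, adjusted p = 3.86e-09). Chac1, which encodes an enzyme that degrades glutathione, held 23.7, 3.13 and 27.7 CPM in the control libraries, in the order of their numbers, and 24.2, 3.10 and 21.8 CPM in shIRS2. That is 7.65-fold lower, with a log2 fold change of -2.94 (SE 0.15, 95% limits -3.27 and -2.61, adjusted p = 5.54e-08), from 62 and 51 counts in the libraries numbered 2 and 342 to 490 in the others.

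Sesn2 and Ddit4 encode stress-induced inhibitors of mTORC1, the growth-control kinase complex. Sesn2 had 114, 38.3 and 114 CPM in shControl 1 to 3 against 105, 33.3 and 103 CPM in shIRS2 1 to 3. The 4 libraries numbered 1 and 3 lay within 103 to 114 CPM, and the log2 fold change of number 2 was -1.58 (SE 0.08, 95% limits -1.74 and -1.41, adjusted p = 2.96e-08). Ddit4 was at 211, 75.1 and 264 CPM under the control hairpin and at 267, 80.5 and 213 CPM in shIRS2. It was 3.01-fold lower in number 2, at -1.59 (SE 0.13, 95% limits -1.89 and -1.29, adjusted p = 0.000118). Eif4ebp1, whose protein holds back cap-dependent initiation, was lower by a smaller step, at -0.45 (SE 0.06, adjusted p = 0.000177). Xpot, which exports transfer RNA from the nucleus, was the member of this role that did not pass, at -0.01 (SE 0.07, adjusted p = 0.961), with levels of 422 to 487 CPM over the 6 libraries.

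Gdf15 and Fgf21 encode stress hormones that act on other tissues. Gdf15 stood at 8.61, 1.72 and 12.5 CPM in shControl 1, 2 and 3 and at 8.95, 1.52 and 8.69 CPM in shIRS2 1, 2 and 3. It was 5.83-fold lower in number 2, with a log2 fold change of -2.54 (SE 0.21, 95% limits -3.0 and -2.09, adjusted p = 4.97e-06). Fgf21 was near the limit of detection, with 12, 2 and 14 counts in shControl 1 to 3 and 20, 1 and 8 in shIRS2 1 to 3. The edgeR log2 fold change of Fgf21 was -3.15 (SE 0.68, 95% limits -4.72 and -1.80), which is 8.89-fold lower. Apart from that fit, the 3 pooled counts in number 2 against 54 in the others give a ratio 9.98-fold lower after library totals. Its exact 95% counting interval of 3.24- to 49.9-fold leaves out variation between libraries. Fgf21 passed at an adjusted p of 0.00357, which became 0.0520 without shIRS2 2, while DESeq2 gave it no adjusted p.

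Every metabolic enzyme of the set was lower in number 2, as were 11.9% of all genes. Asns, which makes asparagine, held 358, 254 and 424 CPM in the control libraries, in the order of their numbers, and 361, 234 and 348 CPM in shIRS2. Its log2 fold change was -0.58 (SE 0.07, 95% limits -0.73 and -0.43, adjusted p = 7.38e-05). Gpt2, the mitochondrial alanine aminotransferase gene, was at 137, 72.7 and 174 CPM under the control hairpin and at 159, 62.8 and 143 CPM in shIRS2. It was 2.22-fold lower, at -1.15 (SE 0.10, 95% limits -1.36 and -0.94, adjusted p = 6.12e-06), and both libraries numbered 2 lay below the lowest of the others. Pck2, the mitochondrial phosphoenolpyruvate carboxykinase gene, had 52.3, 21.4 and 84.9 CPM in shControl 1 to 3 against 66.1, 27.9 and 65.8 CPM in shIRS2 1 to 3. Its fall was 2.67-fold, at -1.42 (SE 0.18, 95% limits -1.85 and -0.98, adjusted p = 0.00276), and the adjusted p rose to 0.0726 without shIRS2 1.

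Aldh18a1 and Pycr1 act in proline synthesis and Cth makes cysteine. Aldh18a1 was lower at -0.50 (SE 0.08, adjusted p = 0.000421), with 152 and 165 CPM in the libraries numbered 2 and 198 to 265 CPM in the others. Cth was lower at -0.78 (SE 0.15, adjusted p = 0.00177). Pycr1 was a weaker call at -0.50 (SE 0.15, adjusted p = 0.0308), from 111 and 96 counts in number 2, and lost it in 7 of 13 alternatives. Leaving out shControl 2, shControl 3, shIRS2 1 or shIRS2 2 gave Pycr1 adjusted p-values of 0.412, 0.0701, 0.0503 and 0.161.

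Among the 4 kinase genes, the 2 genes of eIF2 and its exchange factor and the 2 phosphatase subunit genes, 1 was lower and 1 was higher in number 2. Over all genes 11.9% were lower and 11.6% higher, so these counts do not set the roles apart from all genes. The 4 eIF2 alpha kinase genes are Eif2ak1 (haem shortage), Eif2ak2 (double-stranded RNA), Eif2ak3 (endoplasmic reticulum stress) and Eif2ak4 (amino acid shortage), and 0 of the 4 passed. Their log2 fold changes in number 2 were 0.16, 0.15, -0.19 and 0.15, with 95% intervals of -0.0042 to 0.33, -0.020 to 0.31, -0.39 to 0.0047 and -0.023 to 0.32. Eif2ak4 had 57.6, 61.2 and 47.4 CPM in shControl 1 to 3 against 52.2, 51.9 and 51.4 CPM in shIRS2 1 to 3, and its levels overlapped between the numbers. Eif2ak3 was lowest in number 2 within each group, at 25.2 CPM in shIRS2 2, and had an adjusted p of 0.149. Eif2ak1 shares ground with Aimp2 on the other strand, so its counts are uncertain.

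Eif2s1, which encodes the phosphorylated alpha subunit itself, was the member that was higher in number 2. It stood at 315, 387 and 281 CPM in shControl 1, 2 and 3 and at 299.7, 351 and 278 CPM in shIRS2 1, 2 and 3. The log2 fold change was 0.36 (SE 0.06, 95% limits 0.23 and 0.49, adjusted p = 0.000684), and without shControl 2 it was 0.31 with an adjusted p of 0.104. Eif2b5, the catalytic subunit of the exchange factor, did not pass, at 0.10 (SE 0.07, adjusted p = 0.318). Of the phosphatase subunits, the stress-induced Ppp1r15a was lower at -0.50 (SE 0.11, adjusted p = 0.00597), with 22.4 and 25.3 CPM in number 2 and 29.3 to 37.2 CPM in the others. Without shControl 2 its adjusted p was 0.197, and in limma on FPKM 0.0546 and 0.0511. The constitutive Ppp1r15b did not pass, at -0.16 (SE 0.06, adjusted p = 0.0805), though both libraries numbered 2, at 250.4 and 243 CPM, lay below the others, at 266 to 303 CPM.

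**Figure D2:**
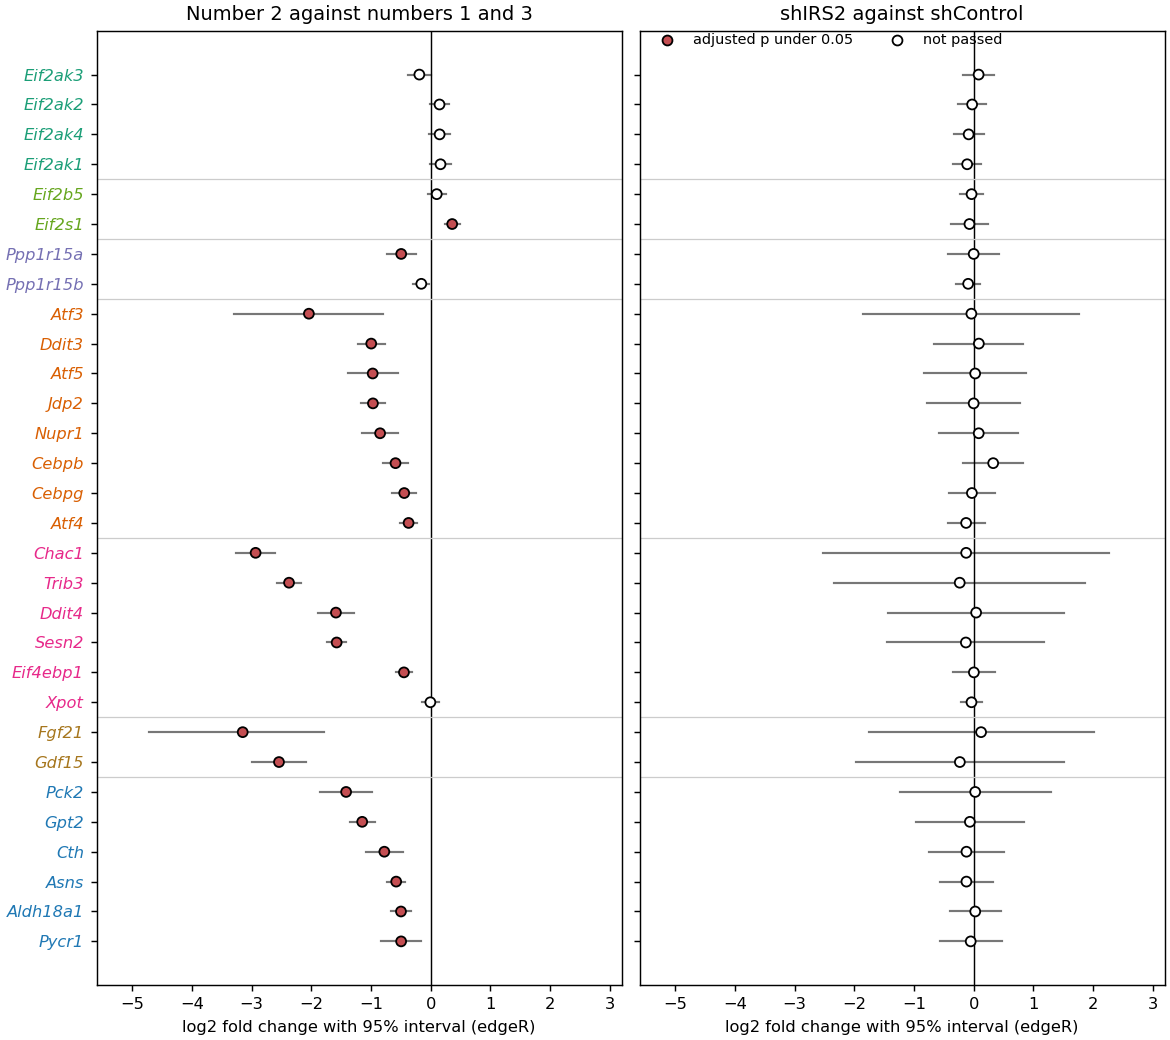
Log2 fold change of each of the 30 tested genes with its 95% interval from edgeR, for number 2 against numbers 1 and 3 (left) and for the libraries labelled shIRS2 against control (right); filled points passed an adjusted p of 0.05. On the left 22 genes are filled below 0 and Eif2s1 above it; on the right 0 are filled.

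The promoter letters shown above can be set beside these results. Of the members with a promoter in the table, 20 were lower in number 2 and 9 of these held TGATGNAA, while 7 tested members that were not lower held it in 0 cases. Those 7 were the eIF2 alpha kinase genes, Eif2s1, Eif2b5 and Xpot, so this split cannot be told apart from the roles by which the set was put together. Over all genes with a promoter 4.51% held the letters. The share among all genes lower in number 2 was not computed, and a link between letters and change was not tested. Chac1, Trib3, Atf3, Fgf21 and Pck2, all lower by at least 2-fold, were among the 9. Sesn2, Ddit4, Gdf15 and Gpt2 were lower by at least 2-fold without these letters in the window, and Jdp2, Nupr1, Pycr1 and Asns held them with smaller changes. No match says only that these letters are not in this window.

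By hairpin, no member passed in the comparison of all 6 libraries after the filter on low counts. Of the 30 tested members, 0 passed the edgeR comparison of the libraries labelled shIRS2 with the control libraries, as did 0% of all genes. At an unadjusted p under 0.05 there were 0 members and 1.94% of all genes. All 3 shIRS2 libraries lay above all control libraries in 0 members and 2.75% of all genes, and below them in 0 members and 3.77% of all genes. The median log2 fold change was -0.04 over the members, with 10 positive and 20 negative, and -0.0003 over all genes, with 6720 positive and 6752 negative. The median half-width of the 95% interval was 0.51 over the members, against 0.32 over all genes. For Chac1 the interval ran from -2.53 to 2.27.

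The smallest unadjusted p by hairpin among the members belonged to Cebpb, whose levels are given above, at a log2 fold change of 0.33 (SE 0.22, 95% limits -0.17 and 0.83, adjusted p = 1.00). Within the pairs numbered 1, 2 and 3 its log2 ratio was 0.21, 0.71 and 0.18. Next came Ppp1r15b at -0.09, Eif2ak1 at -0.11, Atf4 at -0.13 (SE 0.14, 95% limits -0.44 and 0.18, adjusted p = 1.00), Eif2ak4 at -0.08 and Eif2ak3 at 0.08, each with an adjusted p of 1.00. With the replicate number as a block, which takes the difference between the numbers out of the error, 0 members passed while 0.00742% of all genes, a single gene, did. At an unadjusted p under 0.05 the blocked fit held 3 members and 9.16% of all genes. These were Cebpb at 0.37 (SE 0.09, adjusted p = 0.240), Trib3 at -0.20 (SE 0.08, adjusted p = 0.464) and Sesn2 at -0.14 (SE 0.07, adjusted p = 0.538). With the block and no filter on low counts Cebpb passed, at 0.37 with an adjusted p of 0.000488, as 1 of 145 genes.

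Within the numbered pairs the members leaned different ways. Their median log2 ratio of the library labelled shIRS2 to the control library was 0.11 in the pair numbered 1, with 21 of 30 positive, -0.04 in the pair numbered 2, with 11 positive, and -0.20 in the pair numbered 3, with 6 positive. These ratios were not summarised over all genes, so the values do not show whether the lean is particular to the members. Ddit4, for example, had ratios of 0.36, 0.11 and -0.31, and Atf3 had 0.57, -0.87 and -0.67. Trib3 had -0.11, -0.05 and -0.40, below 0 in every pair.

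The fall in number 2 was measured separately under each hairpin, in libraries that the 2 groups do not share. Number 2 lay below the mean of numbers 1 and 3 in both groups for 24 of the 30 tested members and for 38.4% of all genes. The median log2 difference was -0.61 under the control hairpin and -0.57 in the libraries labelled shIRS2, against -0.0017 and -0.0031 over all genes. Chac1 had differences of -2.82 and -2.68 in the control and shIRS2 libraries, Trib3 -2.45 and -2.24, and Sesn2 -1.53 and -1.60. Across the 30 members the differences in the groups correlated at a Pearson r of 0.95 and a Spearman rho of 0.94, and across the 13472 tested genes at 0.645 and 0.65. Genes are not independent replicates, and these values describe 6 libraries. An interaction of hairpin group with number 2 was called for 0 members and 0.00742% of all genes, and at an unadjusted p under 0.05 it held 1 member, Cebpb, and 1.15% of all genes. That test has 2 residual degrees of freedom, so it does not show that the groups behaved alike.

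**Figure D3:**
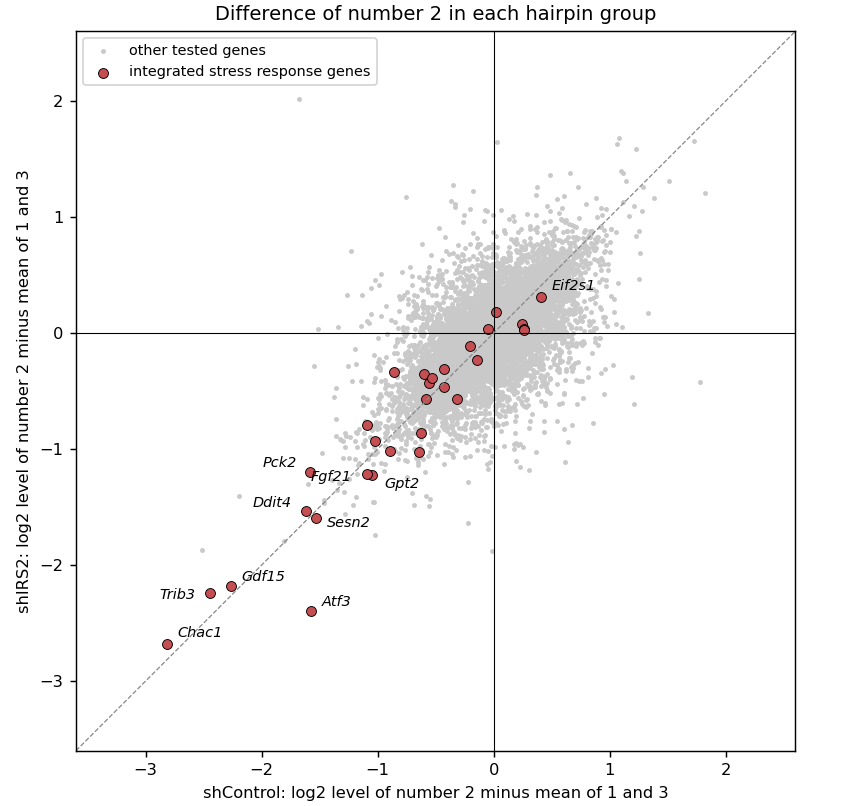
Difference of the library numbered 2 from the mean of numbers 1 and 3, on the scale of log2(CPM + 0.5) after TMM scaling, under the control hairpin (x axis) and in the libraries labelled shIRS2 (y axis), for 13472 genes in grey and 30 members in red; the dashed line marks equal differences. Chac1, Trib3 and Gdf15 lie near that line at the lower left, beyond nearly all other genes, and Atf3 lies below it.

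Between numbers 3 and 1, no member passed. In that contrast 0 members and 0.238% of all genes passed, and the members' median log2 fold change was 0.03, with a range of -0.59 to 0.47. At an unadjusted p under 0.05 there were 4 members, 13.3% of those tested, and 10.3% of all genes. The 4 were Jdp2 at 0.42 (SE 0.10), Aldh18a1 at 0.26 (SE 0.09), Pycr1 at 0.37 (SE 0.17) and Atf5 at 0.47 (SE 0.19), all higher in number 3, and the smallest adjusted p was 0.111, for Jdp2. Of the 9 members at least 2-fold lower in number 2, Trib3, Sesn2, Chac1, Ddit4 and Gpt2 had 0.03, -0.01, 0.05, 0.00 and 0.10 here. The others were further from 0, with 0.27 for Gdf15, 0.36 for Pck2, -0.53 for Atf3 and -0.59 for Fgf21. Without a filter on low counts 3 members and 0.785% of all genes passed, and without shIRS2 3 these were 5 members and 1.91%.

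Further genes of the pathway were read from the same fit, in which 11.9% of all genes were lower in number 2 and 11.6% higher. The lists, like the contrast, were chosen with earlier results of these data known. Their counts are therefore no independent test of the members' result. Fewer of all genes passed when either library numbered 2 was left out, as given above. The shares of all genes lower and higher are not given for those fits, so list counts from them are not set against all genes. Of 25 further ATF4 targets, 18 were lower in number 2, 0 were higher and 7 did not pass, with a median log2 fold change of -0.29. Psph, the last enzyme of serine synthesis, had 82.6, 43.6 and 89.1 CPM in shControl 1 to 3 against 84.3, 43.7 and 78.3 CPM in shIRS2 1 to 3. Its log2 fold change was -0.91 (SE 0.08, adjusted p = 5.19e-06), and that of Slc1a4, a neutral amino acid transporter gene, was -0.92 (SE 0.09, adjusted p = 1.73e-05). The aminoacyl-tRNA synthetase genes Cars and Aars were lower at -0.54 (SE 0.07, adjusted p = 0.000134) and -0.47 (SE 0.06, adjusted p = 0.000144). The 7 that did not pass were the synthetase genes Wars, Eprs, Tars, Iars and Lars, and Phgdh and Slc7a1. This list held 8 lower genes when shControl 2 was left out and 7 when shIRS2 2 was.

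A list of 17 genes came from the other branches of the unfolded protein response, which run through IRE1 and ATF6. Of these, 7 were lower (11.9% of all genes), 0 were higher (11.6%) and 10 did not pass, with a median of -0.12. The 10 included Hspa5 at -0.10, Hsp90b1 at 0.01, Calr at -0.01 and Atf6 at -0.09, named after their values were seen. Herpud1, which serves degradation of misfolded proteins and is also reached by ATF4, stood at 80.7, 27.7 and 78.8 CPM in shControl 1, 2 and 3 and at 72.5, 36.7 and 82.1 CPM in shIRS2 1, 2 and 3, a log2 fold change of -1.26 (SE 0.10, adjusted p = 3.39e-06). Xbp1, the transcription factor spliced by IRE1, was lower at -0.65 (SE 0.07, adjusted p = 4.27e-05), Dnajb9, a co-chaperone, at -0.48 (SE 0.09, adjusted p = 0.00216) and Sdf2l1 at -0.29 (SE 0.07, adjusted p = 0.0111). With shControl 2 left out 3 of the 17 were lower, with shIRS2 2 left out 2, and in limma on FPKM 3 and 4. The share of all genes lower in these fits is not given here, so these counts are not set against it.

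In a list of 10 translation factor genes the calls were in the other direction. It holds 8 subunits of eIF2 and eIF2B, Eif2s1 and Eif2b5 among them, and Eif2a and Eif2d, which encode the separate factors eIF2A and eIF2D. Of the 10, 5 were higher in number 2 (11.6% of all genes), 0 were lower (11.9%) and 5 did not pass, with a median log2 fold change of 0.24. Beside Eif2s1, they were Eif2b1 at 0.44 (SE 0.08, adjusted p = 0.00143), Eif2b3 at 0.45 (SE 0.08, adjusted p = 0.00152), Eif2s3x at 0.28 (SE 0.06, adjusted p = 0.00442) and Eif2b4 at 0.28 (SE 0.08, adjusted p = 0.0248), the last named after its value was seen, while Eif2a and Eif2d had 0.19 and 0.13 and did not pass. With shControl 2 left out, 0 of the 10 were higher, and with shIRS2 2 left out 4 were. Another list held 8 genes for amino acid sensing at the ribosome and for the mitochondrial relay to the kinases. Of these, Abce1, Hspd1 and Oma1 were higher, at 0.33, 0.29 and 0.49, and Lonp1, a mitochondrial protease gene, was lower at -0.51 (SE 0.06, adjusted p = 9.86e-05). The 1 lower gene of this list is near the share of 11.9% lower over all genes, where 11.6% were higher. With shControl 2 left out 0 of that list were higher, and with shIRS2 2 left out 1 was. By hairpin 0 genes of these 4 lists passed, with list medians from -0.10 to 0.14. Log2 fold changes by hairpin were positive in 5 of the 25 ATF4 targets, 1 of the 10 translation factor genes, 16 of the 17 genes of the other branches and 3 of the 8 sensing and relay genes, against 6720 of the 13472 genes tested. With the replicate block and an unadjusted p under 0.05 these lists held 3, 2, 7 and 1 genes, where 9.16% of all genes passed, and 0 passed after adjustment.

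**Figure D4:**
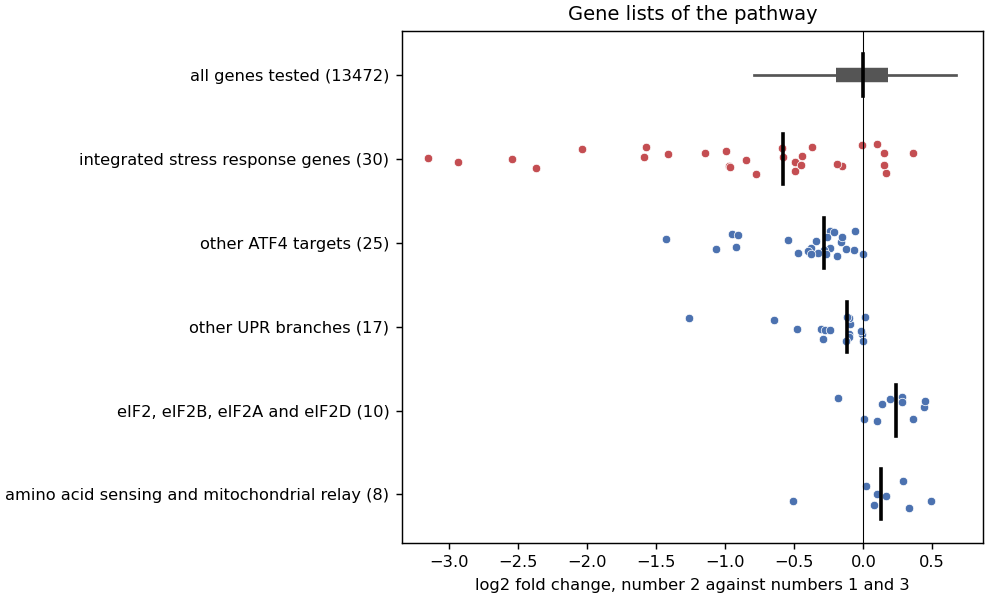
Log2 fold change of number 2 against numbers 1 and 3 for the integrated stress response genes (red) and 4 related lists (blue), 1 point a gene with the median as a black bar, spread vertically for legibility; for all tested genes the thick bar spans the interquartile range and the thin line the middle 95%, from -0.79 to 0.67. The members reach furthest below 0, with a median of -0.58, and the 10 genes of eIF2, eIF2B, eIF2A and eIF2D lie mostly above it, with a median of 0.24.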

How the data were processed

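RNA from 6 libraries was enriched by poly(A) selection, made into strand-specific libraries with dUTP and read as 150 bp paired ends, per the labels' protocols. The authors deposited raw read counts and FPKM values per gene side by side, and mm10 is the build named in the submitters' processing notes. The aligner, counting tool and strand setting were not given in the sources used here, so counts of genes that overlap on opposite strands are uncertain. Table columns were matched to libraries by name alone. The numbers of Ddit3 are from the row with counts; a second row of that symbol held 0.

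Counts were tested with edgeR 4.0.16 in R 4.3.3 (quasi-likelihood, TMM, filterByExpr, Benjamini-Hochberg adjustment over 13472 genes, threshold 0.05) by hairpin group and, with the group as a term, by replicate number. DESeq2 1.42.0, limma 3.58.1 on log2(FPKM + 1) and log2(FPKM + 0.1), other scalings, no filter, and leaving out each library were alternatives. Scripts were tested on simulated data. Deviations from the group means of same-numbered libraries correlated at 0.201, 0.645 and 0.315 across genes, each over 0.1, so the numbers were taken to pair the libraries. Differently numbered libraries also reached 0.221 (shControl 1 with shIRS2 3) and 0.232 (shControl 3 with shIRS2 1), above the pair numbered 1, while number 2 with another number gave -0.443 to -0.341. Deviations were taken within each group, so a shared number 2 difference moves numbers 1 and 3 alike. The match is therefore shown for number 2 only, and the 0.1 could not decide it for numbers 1 and 3. For these the block, the pair ratios and the contrast of number 3 with number 1 rest on the numbering alone. The replicate block is given beside the hairpin results. Folds are printed for the 22 members with the smallest p in the number 2 contrast and 6 in the hairpin comparison; Atf3, the other member that passed, and members that did not were added. Members, lists and the number 2 contrast were chosen with earlier results of these data known.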

Additional observations from a re-analysis of the deposited data

How the results depend on the processing

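Of the 22 members lower in number 2, 14 passed under each of the 13 alternatives run. This was not counted over all genes, so the values do not show whether that share is particular to the members. For the 22 members whose folds are named by rule, which include Eif2s1 and not Atf3, values in that contrast kept their side of the threshold in 266 cases, lost it in 19 and reversed in 0. Atf3 lost its call in 3 alternatives, and Ppp1r15b was lower in 3. Genes called by hairpin numbered 0 in the edgeR comparison, 2 in DESeq2 and 6 without a filter. With the replicate block 1 gene passed, and with the replicate block and no filter 145 did, among them 1 member, Cebpb (adjusted p = 0.000488). For any difference between numbers DESeq2 called 1641 genes and limma 803 and 864 (pseudocounts 1 and 0.1), and for number 2 these were 1968, 1836 and 1852. For number 3 against number 1 DESeq2 called 52 genes, limma 0 and 0, the fit with no hairpin term 0 and the fit with no filter 204, 3 of them members. The cause of these differences was not tested.

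Leaving out each library in turn gave 0 genes by hairpin, 798 to 3774 genes and 16 to 24 members for any number, 808 to 3687 genes and 17 to 26 members for number 2, 64 to 264 genes and 0 to 5 members for number 3 against 1, and 1 to 17 genes and 0 members for the interaction, which has no value without a number 2 library. For any number and for number 2 the lowest counts came without shControl 2. Eif2ak4 by hairpin ranged from -0.19 to 0.0067 on the log2 scale, reversing without shControl 2. Leaving out both number 2 libraries, chosen after seeing the data, gave 0 genes and 0 members by hairpin. Depth limited Fgf21, with 1 to 20 counts a library, and no statement can be made on Vldlr and Stc2 below their bound.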
